A study of Rattus norvegicus with 9 samples.

Results

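Sox9, Acan, Hapln1, Mgp, Runx2, Alpl and Enpp1 were followed as the cartilage and mineralization genes of cultured rat cardiac fibroblasts, the connective-tissue cells that make the matrix of the heart. They were taken by symbol from the deposited gene counts. That rule itself uses no measured value, but the 7 genes were chosen with earlier results of these data known. All 7 were among the 17337 genes of the count table, and all 7 passed the filter on low counts that left 11337 genes for testing. Hapln1 passed that filter only through its counts in fetal libraries. RNA was sequenced from 9 libraries of Sprague Dawley rat cardiac fibroblasts, 3 for each of 3 ages. The ages were embryonic day 18 (fetal), postnatal day 1 (neonatal) and 7 weeks (adult). All were passage-0 isolates that had reached confluence in flasks of DMEM with fetal bovine serum, Penicillin/Streptomycin and ascorbic acid, so every age carried the same culture conditions. The labels name no genetic change, treatment or sort, and the counts therefore come from every cell that attached and grew. They do not say whether the 3 libraries of an age came from separate animals, litters or flasks, so p-values measure only the spread between these libraries, which may be technical.

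Cartilage is built around a large proteoglycan aggregate: aggrecan, the product of Acan, is held on hyaluronan by the link protein Hapln1, and its gene is a target of the transcription factor Sox9, the master regulator of chondrocytes. Mineralization of matrix is set by a balance of phosphate and pyrophosphate: the ectoenzyme Enpp1 makes pyrophosphate, an inhibitor of crystal growth, the tissue-nonspecific alkaline phosphatase Alpl cleaves it, and matrix Gla protein, the product of Mgp, keeps soft tissues and arteries from calcifying. Runx2 is the transcription factor that starts the osteoblast programme. In the heart the cartilage genes are best known from the mesenchyme of the developing valves, and the mineralization genes from calcification of arteries, valves and injured muscle.

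The libraries held 13392825 to 22850491 assigned counts, and the 3 adult libraries were shallower than all others. Fetal replicate 3 stood apart from its group: its distance over log2 counts per 1000000 assigned counts (CPM) was 77.5 and 77.1 from fetal replicates 1 and 2, which lay 24.7 from each other. Reported results of the 7 genes and of the 4 genes named from each list were checked without this library. Those whose call or direction it changes, or whose fold it moves by over 1.5 times, are given with and without it. Some counts of the gene lists also change without it and are given only with all libraries. The sum over 10 fibroblast markers was 26480 to 53230 CPM in fetal, 70650 to 76890 in neonatal and 26660 to 34590 in adult libraries. Col1a1 and Col3a1 carried most of it, while Col1a2 had only 0.41, 0.72 and 0.35 CPM in fetal, neonatal and adult cells. Col1a1 stood at 26020, 37780 and 14960 CPM in the same ages. The reason for the low Col1a2 counts was not tested, so they are not read as its level in these cells. In adult against fetal cells, 5 of the 10 were higher and 2 lower without overlap of libraries. RNA of other cells also moved with age. The sum over 12 cardiomyocyte markers was 9803 to 14000 CPM in fetal, 6288 to 6924 in neonatal and 305.7 to 319.8 in adult libraries, and for 12 of 12 each adult library lay below all fetal and neonatal ones. The sum over 12 macrophage markers was 6.74 to 56.8 CPM in fetal, 147.1 to 161 in neonatal and 4002 to 5583 in adult libraries, and 12 of 12 were higher in every adult library. Epithelial markers summed to 368.7 CPM in fetal replicate 3 and to 49.8 in each of the other two fetal libraries, and lung epithelial markers to 87.5 against 2.0 and 1.85. The part of these cell types in the results that follow was not tested, and in such bulk RNA fewer cells of a type and less RNA per cell cannot be told apart.

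Markers that define cartilage and bone cells had low sums at every age. Of 8 chondrocyte markers in the table, 4 were at 0 in all adult libraries, among them Col2a1, the main collagen of cartilage. Cnmd (listed as Lect1) was at 0 in all 9 libraries. In adult against fetal cells, 3 of the 8 were lower and 2 higher without overlap of libraries. The 2 higher ones were Col11a2 (3.7 CPM in fetal and 5.1 in adult cells) and Snorc, listed as RGD1311447 (0.196 and 0.744 CPM). Col9a2 reached 21.3 and 19.9 CPM in fetal replicates 1 and 2. The 8 summed to 31.3 to 50.3 CPM in fetal, 12.3 to 13.2 in neonatal and 7.57 to 9.31 in adult libraries. The 6 osteoblast markers in the table (Bglap, Ibsp, Dmp1, Sp7, Phex and Mepe) summed to 1.06 to 1.90 CPM in fetal, 0.418 to 0.770 in neonatal and 0.225 to 0.383 in adult libraries. Sp7, the factor that acts after Runx2 in osteoblasts, had 1 to 3 counts in each fetal library and none in the 6 others.

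**Figure D1:**
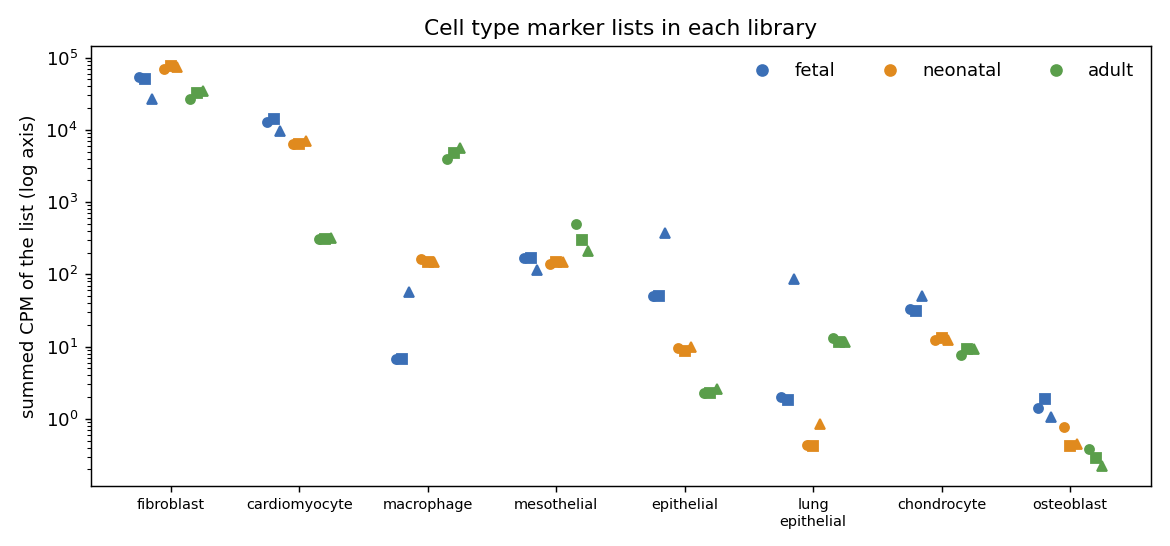
Summed CPM of 8 marker lists (log axis) in each of the 9 libraries, coloured by age, with a circle, square and triangle for replicates 1, 2 and 3. Macrophage markers were highest and cardiomyocyte markers lowest in the 3 adult libraries, osteoblast markers stayed under 2 CPM, and fetal replicate 3 was apart in the epithelial and lung epithelial lists.

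The genes lie on 6 chromosomes of the rn6 annotation that the count table carries. Sox9 is at chr10:101288528-101294028 on the plus strand with 3 exon entries, and Acan at chr1:140762758-140824441, plus strand, with 21. Hapln1 is at chr2:18354542-18416468 (plus strand, 5 exon entries), Mgp at chr4:170856783-170860105 (minus, 4) and Runx2 at chr9:18564927-18773092 (plus, 16). Alpl is at chr5:156086498-156141513 (minus, 12) and Enpp1 at chr1:21748236-21811969 (plus, 25). Counts cover exons only, and no exon of another gene in the table overlapped an exon of these 7.

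Start-site sequences were read for Acan, Hapln1, Runx2 and Alpl from RefSeq on the GRCr8 build, which matched 4 of the 7 symbols. A relation of these sequences to the changes with age was not tested. The sequences differ in composition: those of Acan, Alpl and the second of the 2 Runx2 starts are GC-rich, and those of Hapln1 and the first Runx2 start less so. Each is the 250 bases before the start site, 5′ to 3′ on the gene's strand. Capitals mark the motifs searched on both strands: ACAAT and ACAAAG for SOX factors, TGTGGT for RUNX factors, and TATAAA for the TATA box.
Acan, chr1:142390701-142390950, plus strand: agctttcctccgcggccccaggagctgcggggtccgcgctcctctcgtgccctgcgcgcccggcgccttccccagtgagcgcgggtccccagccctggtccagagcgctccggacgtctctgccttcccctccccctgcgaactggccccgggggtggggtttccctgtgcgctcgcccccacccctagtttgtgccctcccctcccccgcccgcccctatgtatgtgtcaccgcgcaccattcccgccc
Hapln1, chr2:22366717-22366966, plus strand: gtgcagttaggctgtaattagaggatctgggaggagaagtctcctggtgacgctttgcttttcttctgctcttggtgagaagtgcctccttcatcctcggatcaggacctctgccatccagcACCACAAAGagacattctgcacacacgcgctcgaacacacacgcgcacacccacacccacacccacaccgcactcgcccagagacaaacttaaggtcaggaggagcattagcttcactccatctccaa
Runx2 first start, chr9:23664808-23665057, plus strand: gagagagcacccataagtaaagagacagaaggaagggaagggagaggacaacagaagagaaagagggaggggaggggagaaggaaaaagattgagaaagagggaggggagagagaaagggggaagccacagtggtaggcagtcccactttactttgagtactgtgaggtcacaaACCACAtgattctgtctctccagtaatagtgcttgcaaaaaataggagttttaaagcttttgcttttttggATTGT
Alpl, chr5:155289786-155290035, minus strand: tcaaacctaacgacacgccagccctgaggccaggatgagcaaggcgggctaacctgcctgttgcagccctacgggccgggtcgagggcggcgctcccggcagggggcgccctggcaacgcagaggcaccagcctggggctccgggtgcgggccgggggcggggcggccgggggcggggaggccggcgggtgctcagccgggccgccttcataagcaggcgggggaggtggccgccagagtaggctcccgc
The GC content was 73.6% for Acan, 76% for Alpl, 54% for Hapln1 and 45.6% for the first Runx2 start. Hapln1 held ACAAAG from base -125 to -120, counted from the start site, overlapping ACCACA, the reverse complement of the RUNX motif, from -128 to -123. The first Runx2 start held ACCACA from -76 to -71 and ATTGT, the reverse complement of the short SOX motif, from -5 to -1. None of the motifs lay in the Acan or Alpl window, nor in that of the second Runx2 start (chr9:23742990-23743239, 70% GC), which gene counts cannot tell from the first. Among 33469 windows of the same length, 30% held ACAAT, 16.3% held ACAAAG, 40.6% held either, 14.5% held TGTGGT and 12.9% held TATAAA. A match describes these letters and is not a binding site.

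The 7 genes did not move as a block. In neonatal against fetal cells 3 of 7 passed an adjusted p of 0.05 by edgeR's quasi-likelihood test, Sox9 higher and Hapln1 and Enpp1 lower, against 36.3% of all genes tested (18.3% higher and 18% lower). In adult against fetal cells 5 of 7 passed, Mgp and Alpl higher and Acan, Hapln1 and Enpp1 lower, against 70.5% (34.9% higher and 35.5% lower). In adult against neonatal cells 5 of 7 passed, Mgp and Alpl higher and Sox9, Acan and Enpp1 lower, against 63.5% (31.6% higher and 31.8% lower). In the test of any difference among ages 6 of 7 passed, all but Runx2, against 77.6%. With all libraries these shares are near those of all genes, so the counts show nothing particular to these 7 genes. They include Hapln1, tested only through the fetal libraries, in the comparisons with fetal cells and in the test of any difference. Its calls there are no support. Without fetal replicate 3 the genes called numbered 5, 6 and 6 of 7 in the same 3 comparisons, against 40.6%, 74.8% and 72.2% of 11519 genes. The libraries of the compared ages did not overlap for 4, 5 and 6 of the 7 genes in the same order of comparisons, against 57.4%, 71.8% and 76.1% of all genes. The 3 comparisons share libraries and are not independent of each other. The median log2 fold change of the 7 was 0.06 in neonatal against fetal, 0.25 in adult against fetal and -0.95 in adult against neonatal cells, where that of all tested genes was -0.01 in each. With Hapln1 set to its bound against the floor, the median in adult against neonatal cells was 0, so the -0.95 rests on a fitted value over adult libraries at 0. For a single gene, an exact permutation test of 3 against 3 libraries cannot go below 0.1.

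**Figure D2:**
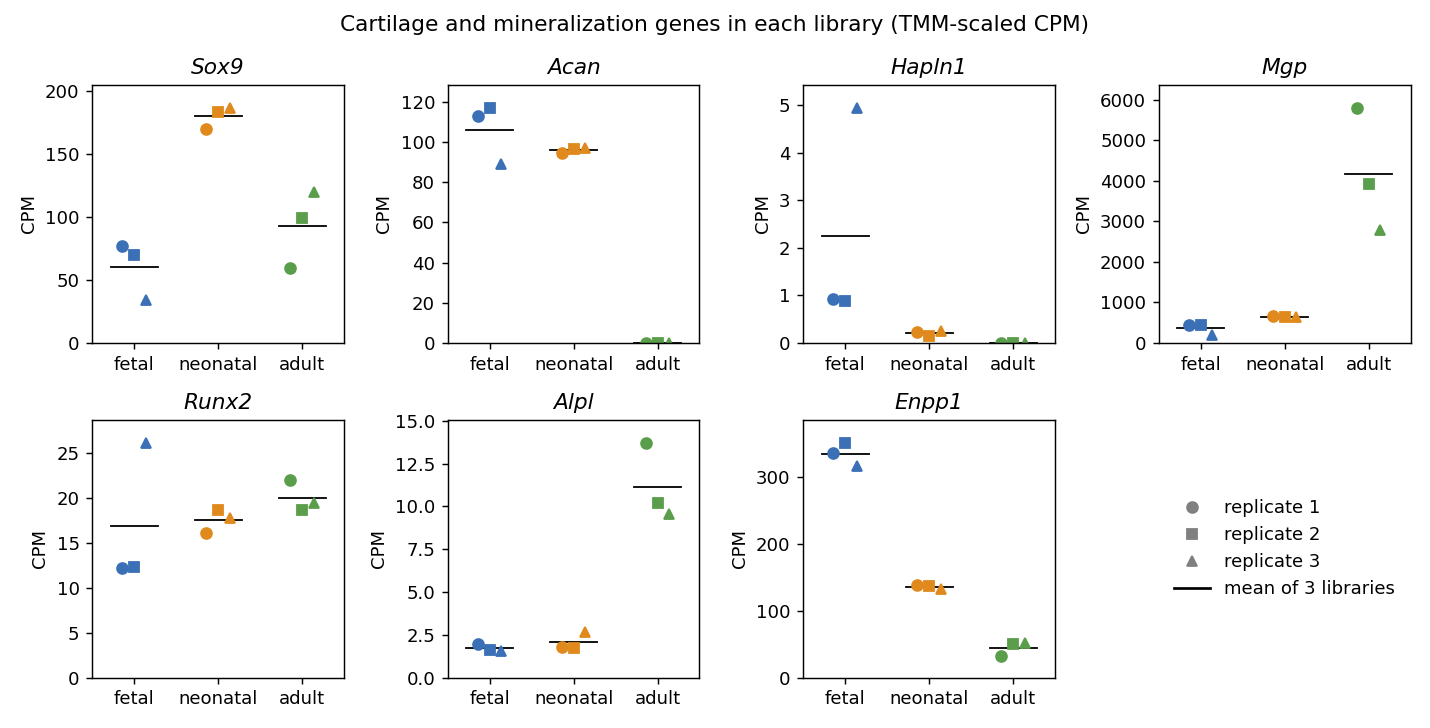
CPM of the 7 genes in each library (linear axes from 0, 1 panel per gene, 3 points per age, bar at the mean of the age). Acan fell to 0.144 to 0.153 CPM and Alpl reached 9.58 to 13.7 CPM in adult libraries, Sox9 was highest in neonatal ones, and fetal replicate 3 was apart for Sox9, Hapln1, Mgp and Runx2.

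Sox9, the chondrocyte master factor that is also made by valve and activated cardiac fibroblasts, was highest in neonatal cells. Its level was 77.1, 69.8 and 33.7 CPM in fetal replicates 1, 2 and 3, 170, 183 and 186 CPM in neonatal and 59.1, 99.4 and 120 CPM in adult replicates. Every neonatal library was above every fetal and adult library, while fetal and adult libraries overlapped. Sox9 rose 2.98-fold from fetal to neonatal cells (log2 fold change 1.58 ± 0.32 SE, n = 3 per age, edgeR adjusted p = 0.00638), and 2.45-fold without fetal replicate 3 (adjusted p = 0.0143). It was 1.94-fold lower in adult than in neonatal cells (log2 fold change -0.95 ± 0.32 SE, edgeR adjusted p = 0.0269). That last call is fragile: the adjusted p was 0.0520, 0.0661 and 0.0649 without neonatal replicate 1, 2 or 3, and 0.0723 and 0.0530 without adult replicate 1 or 2. Between fetal and adult cells the log2 fold change of 0.62 did not pass (edgeR adjusted p = 0.110). Without adult replicate 1, the lowest adult library, it was 0.86 with an adjusted p of 0.0309.

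Acan, the cartilage proteoglycan downstream of Sox9 in chondrocytes, was present before and just after birth and almost absent from adult cells. Fetal replicates had 113, 117 and 89.0 CPM, neonatal ones 94.6, 96.8 and 97.3, and adult ones 0.153, 0.144 and 0.150, which is 2 counts in each adult library. The drop was thus between the neonatal and adult cultures: pooled over libraries, the level was 717.5 times lower in adult than in fetal cells (95% exact counting interval 329.5 to 1956) and 645.8 times lower than in neonatal cells (296.5 to 1761). These intervals cover counting error only. EdgeR's adjusted p was 1.00e-09 against fetal and 2.16e-09 against neonatal cells. Fetal and neonatal levels did not differ past the threshold (log2 fold change -0.14 ± 0.09 SE, adjusted p = 0.260). Without fetal replicate 3, the lowest fetal library, the same difference was -0.25 with an adjusted p of 0.00297. Sox9 and Acan did not follow each other across ages: the ratio of their levels per length (RPKM, CPM per kilobase of exon) was 1.12 ± 0.36 (SD, n = 3) in fetal, 0.312 ± 0.011 in neonatal and 0.00103 in adult cells, where Sox9 was still at 92.7 ± 30.8 CPM. This ratio was chosen with the values known and has no test. Cardiomyocyte marker RNA was also lowest in adult cells.

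Hapln1, the link protein that ties aggrecan to hyaluronan and is made by the embryonic heart's cushions and epicardium, was a rare transcript here. It had 17, 20 and 93 counts in fetal replicates 1, 2 and 3 (0.918, 0.881 and 4.94 CPM), 4, 3 and 4 in neonatal replicates (0.220, 0.139 and 0.259 CPM) and 0 in all 3 adult libraries. All fetal libraries were above all neonatal ones, and fetal replicate 3 held most of the fetal counts. Hapln1 was 10.7-fold lower in neonatal than in fetal cells (log2 fold change -3.43 ± 0.90 SE), and 4.36-fold lower without fetal replicate 3. Because Hapln1 passed the low-count filter only through the fetal libraries, its adjusted p against fetal cells is not given. Its call between neonatal and fetal cells was lost when neonatal replicate 1, 2 or 3 was left out. Against a floor of 3 counts per library, the adult level was at least 10.05-fold lower than the fetal one, with fetal replicate 3 included. Without that library it was at least 4.02-fold lower. Adult and neonatal libraries were both at or near the floor, so no fold can be read from them. The edgeR adjusted p between them was 0.132 with all libraries and 0.0102 without fetal replicate 3.

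Mgp, the vitamin K-dependent inhibitor of soft-tissue calcification, was the most abundant of the 7 and was highest in adult cells. Fetal replicates had 438, 452 and 194 CPM, neonatal ones 657, 638 and 642, and adult ones 5782, 3909 and 2777. The 3 ages did not overlap, with adult replicate 1 at the top and fetal replicate 3 at the bottom. Mgp rose 11.5-fold from fetal to adult cells (log2 fold change 3.52 ± 0.37 SE, edgeR adjusted p = 3.27e-05; 9.32-fold without fetal replicate 3) and 6.44-fold from neonatal to adult cells (2.69 ± 0.36 SE, adjusted p = 0.000196). The fetal to neonatal difference of 0.84 did not pass (edgeR adjusted p = 0.0824), although no library overlapped. Per kilobase of exon, Mgp stood at the top of all 11337 tested genes in adult cells, with 7932 ± 2896 RPKM. The sum over the 5 mesothelial markers in the table was also highest in adult replicate 1, with 494.7, 302.6 and 209.2 CPM in adult replicates 1 to 3 against 113.7 to 169.1 in fetal and 141.3 to 148.5 in neonatal libraries, none of the 5 being at 0 in any age. Aldh1a2 carried most of that sum, with 437, 254 and 169 CPM in adult replicates 1 to 3, while for Msln and Upk1b all adult libraries lay below all younger ones.

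Runx2, the osteoblast master factor, was present at a low level at all ages and passed no comparison when all libraries were used. It had 12.2, 12.3 and 26.1 CPM in fetal replicates, 16.1, 18.7 and 17.8 in neonatal ones and 22.0, 18.6 and 19.4 in adult ones. Fetal replicates 1 and 2 were below all other libraries and fetal replicate 3 above them all. Its log2 fold changes were 0.06 ± 0.27 SE for neonatal against fetal, 0.25 ± 0.27 SE for adult against fetal and 0.19 ± 0.27 SE for adult against neonatal cells, with edgeR adjusted p of 0.883, 0.428 and 0.561. Fetal replicate 3 decides this result. Without it Runx2 was 1.43-fold higher in neonatal than in fetal cells (log2 fold change 0.52, adjusted p = 0.003) and 1.63-fold higher in adult than in fetal cells (0.70, adjusted p = 0.000132), while adult and neonatal cells still did not pass (0.18, adjusted p = 0.102). Without fetal replicate 1 or 2 the neonatal to fetal difference was -0.13 and did not pass.

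Alpl, the phosphatase that destroys pyrophosphate, and Enpp1, the enzyme that makes it, moved in opposite directions with age. Alpl was at 1.94, 1.63 and 1.54 CPM in fetal, 1.82, 1.72 and 2.65 in neonatal and 13.7, 10.2 and 9.58 in adult replicates. All adult libraries were above the 6 others, among which fetal and neonatal ones overlapped. Alpl rose 6.52-fold from fetal to adult cells (log2 fold change 2.71 ± 0.24 SE, edgeR adjusted p = 6.88e-06) and 5.44-fold from neonatal to adult cells (2.44 ± 0.23 SE, adjusted p = 1.94e-05), and the fetal to neonatal difference of 0.26 did not pass (adjusted p = 0.426). These levels rest on 29 to 41 counts in each fetal and neonatal library and 128 to 179 in each adult one.

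Enpp1 fell at each step. It was at 336, 351 and 317 CPM in fetal, 138, 138 and 132 in neonatal and 33.1, 50.3 and 52.0 in adult replicates, and no library of one age overlapped another age. The fall was 2.46-fold from fetal to neonatal cells (log2 fold change -1.30 ± 0.14 SE, edgeR adjusted p = 0.000239). From neonatal to adult cells it was 3.02-fold (-1.59 ± 0.15 SE, adjusted p = 1.48e-05). From fetal to adult cells the fall was 7.42-fold (-2.89 ± 0.15 SE, adjusted p = 2.78e-07). Enpp1 kept its calls and direction under every alternative run, other than a test for a log2 fold change above 1, which it did not pass between fetal and neonatal cells. Leaving out fetal replicate 3 moved the fetal to adult fold to 7.63.

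Per length, the ratio of Enpp1 to Alpl was 175.4 ± 19.6 (SD, n = 3) in fetal cells, 60.9 ± 14.6 in neonatal cells and 3.77 ± 1.43 in adult cells. It ran from 153.3 to 190.7 in fetal, from 44.2 to 71.1 in neonatal and from 2.14 to 4.80 in adult libraries, with no overlap. The ratio was formed with the values known and carries no test. Enpp1 RNA thus remained above Alpl RNA per length in all 9 libraries. Macrophage marker RNA rose and cardiomyocyte marker RNA fell over the same ages.

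**Figure D3:**
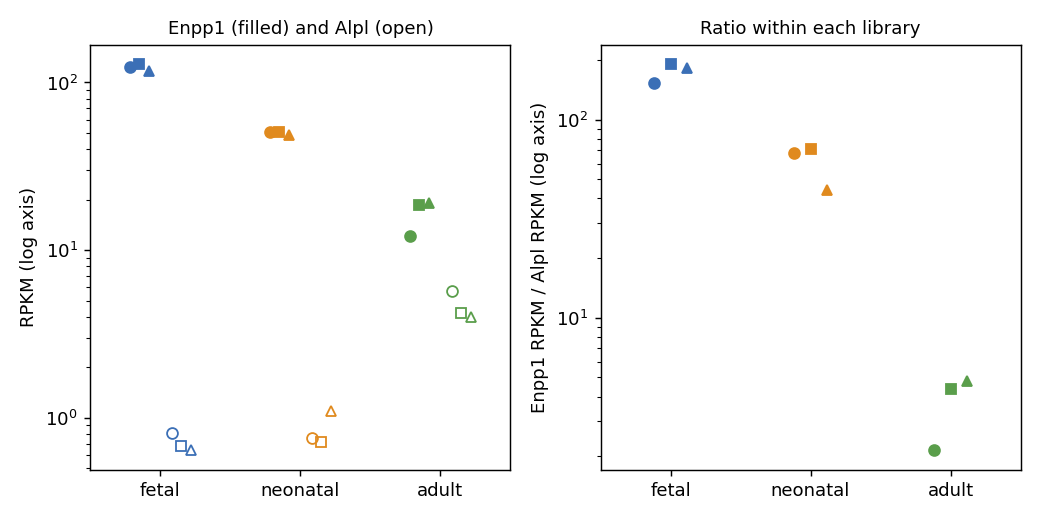
Enpp1 and Alpl in RPKM (log axis) and the ratio of Enpp1 to Alpl (log axis) in each of the 9 libraries, grouped by age. The ratio fell from 153.3 or more in fetal libraries to 4.80 or less in adult ones, and the ages did not overlap.

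**Figure D4:**
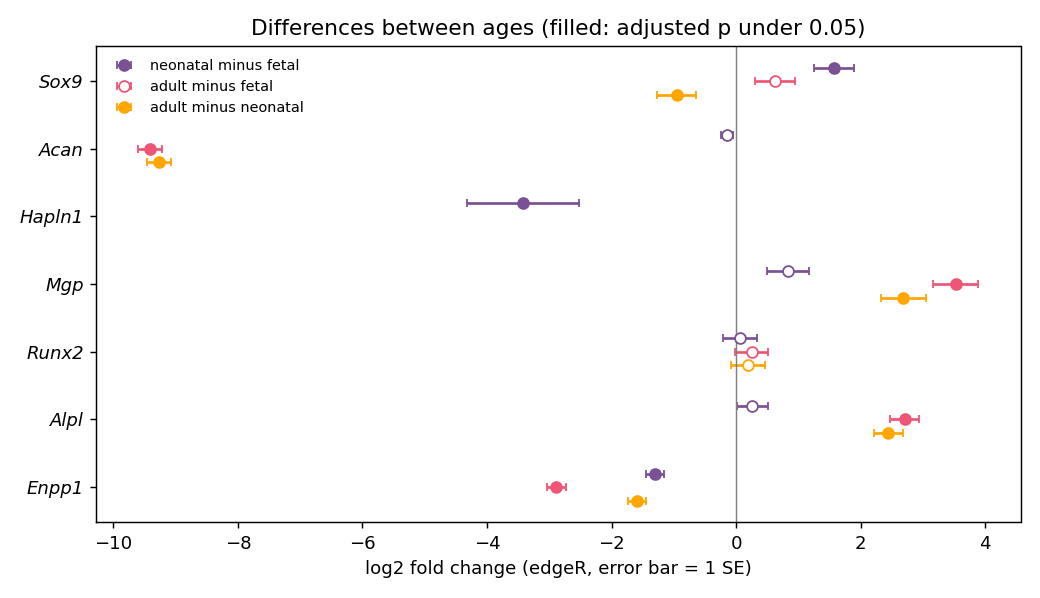
Log2 fold change of each gene with 1 SE from edgeR in the 3 comparisons of ages, with filled points for adjusted p under 0.05. Acan, at -9.41 and -9.27 in the adult comparisons, stands far from the others, Runx2 lies near 0 in all 3, and Hapln1 is not drawn in the adult comparisons because its adult libraries were at 0.

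The order of the 7 genes, compared per length, changed between ages. In fetal cells Mgp led with 689 RPKM, above Enpp1 with 123. Acan (15.3 ± 2.2) and Sox9 (14.9 ± 5.8) came next and did not differ beyond their spread, and Runx2 (2.97 ± 1.41), Hapln1 (1.04 ± 1.08) and Alpl (0.707) closed the order with overlapping spreads between Runx2 and Hapln1 and between Hapln1 and Alpl. In neonatal cells the order was Mgp with 1232 RPKM, Enpp1 with 50.1, Sox9 with 44.6, Acan with 13.9, Runx2 with 3.09, Alpl with 0.855 and Hapln1 with 0.0957. In adult cells Mgp was followed by Sox9 with 23.0 ± 7.65 and Enpp1 with 16.6 ± 3.8 RPKM, whose spreads overlap. Alpl with 4.63 ± 0.92 and Runx2 with 3.53 ± 0.31 came next, and their spreads also overlap. Acan was at 0.0215 RPKM and Hapln1 at 0. Among all genes tested, Acan went from the 57.2 and 54.4 percentile per length in fetal and neonatal cells to the 1.46 percentile in adult cells, and Enpp1 from the 94.5 through the 84.1 to the 57.4 percentile.

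Of the other regulators of cartilage formation, 6 of 10 were tested. In adult against fetal cells all 6 passed, 2 higher and 4 lower (median log2 fold change -1.11), where 70.5% of all genes passed, and in adult against neonatal cells 1 was higher and 4 lower, where 63.5% of all genes passed. The shares of all genes called higher and lower in each comparison, given above for the 7 genes, are also the background of every list that follows, and no list was tested against them. Some listed genes passed the low-count filter only through 1 age, among them Col2a1, Prg4, Hapln4, Runx3, Phex and Enpp2. They are included in the counts of the lists, and their calls are no support. From fetal to neonatal cells 2 were higher and 1 lower (median 0.54). Sox5 and Sox6, the partners of Sox9 on cartilage genes, were low: Sox5 was at 4.61 ± 0.48, 5.89 ± 0.71 and 1.61 ± 0.07 CPM in fetal, neonatal and adult cells and fell with adulthood (adult against fetal -1.51, edgeR adjusted p = 7.31e-05). Sox6 fell from 1.95 ± 0.63 and 3.46 ± 0.38 to 0.342 ± 0.289 CPM (-2.46, adjusted p = 0.00178), with 1 count in adult replicate 1. Trps1, a repressor active in growth plates, fell at each step, from 40.1 through 25.3 to 13.3 CPM. Fgfr3, the receptor that restrains growth-plate chondrocytes, rose instead, from 24.0 through 62.9 to 86.6 CPM (adult against fetal 1.85, adjusted p = 2.04e-06).

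Cartilage matrix genes moved both ways. Of 20 listed, 12 were tested, and 5 were higher and 5 lower in adult than in fetal cells (median -0.34). In neonatal against fetal cells 1 was higher and 2 lower, or 1 higher and 4 lower of 14 tested without fetal replicate 3. Col11a1, a fibrillar collagen of cartilage and tendon, fell 20.2-fold from 751 ± 376 CPM in fetal to 37.2 ± 10.2 in adult cells (-4.34, edgeR adjusted p = 2.49e-05). Col2a1 had 5.29, 5.82 and 38.3 CPM in fetal replicates 1, 2 and 3, at most 0.325 in neonatal libraries and 0 in adult ones. Cilp, a cartilage intermediate layer protein that cardiac fibroblasts also secrete, rose 33.1-fold from 4.27 ± 2.04 to 140 ± 48 CPM (5.05, adjusted p = 3.85e-06). Comp, a pentameric matrix protein of cartilage and tendon, rose 4.22-fold from 1.42 to 6.02 CPM, and Prg4, the joint lubricant, rose 18.0-fold from 0.517 to 9.59 CPM with adult replicate 1 highest at 18.1. Prg4 passed the low-count filter only through the adult libraries.

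Other genes of the hyaluronan aggregate to which Acan and Hapln1 belong were listed together with the Adamts proteases that cut it, and 11 of 17 were tested. In adult against fetal cells 3 were higher and 5 lower (median -0.86), and in adult against neonatal cells 3 higher and 3 lower. In neonatal against fetal cells none was higher and 3 lower, or 1 higher and 4 lower without fetal replicate 3. Vcan, the aggrecan relative of the fetal heart, fell 3.27-fold from fetal to adult cells (-1.71, edgeR adjusted p = 2.88e-06) but still stood at 302 ± 37 CPM, against 987 ± 161 in fetal and 1221 ± 26 in neonatal cells. Of the hyaluronan synthases, Has2, the synthase needed for heart cushions, fell from 45.5 ± 20.9 to 6.65 ± 1.01 CPM (-2.78, adjusted p = 3.56e-05), while Has1 rose from 1.13 ± 0.29 to 15.5 ± 11.6 CPM (3.78, adjusted p = 0.000142), with 28.9 CPM in adult replicate 1 and 8.88 and 8.68 in the others. Cd44, the hyaluronan receptor, which leukocytes also carry, rose 2.30-fold to 403 ± 4 CPM.

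Of 17 osteoblast regulators, 13 were tested, and none was higher and 2 lower in neonatal than in fetal cells, 3 higher and 3 lower in adult than in fetal cells, and 2 higher and 2 lower in adult than in neonatal cells (medians -0.04, -0.07 and 0.10). Beside them, 18.3% of all genes were higher and 18% lower in the first comparison, 34.9% and 35.5% in the second, and 31.6% and 31.8% in the third. Without fetal replicate 3, of 14 tested, 1 was higher and 1 lower in neonatal than in fetal cells, 6 higher and 3 lower in adult than in fetal cells, and 4 higher and 4 lower in adult than in neonatal cells. Runx1, the relative of Runx2 needed for blood formation, was at 47.2, 39.9 and 50.7 CPM in the 3 ages. Runx3 had 1 to 5 counts in each fetal and neonatal library and 18, 51 and 45 in adult ones, and passed the low-count filter only through the adult libraries. Msx2, a homeobox factor of skull and valve mesenchyme, fell from 3.53 ± 2.14 to 0.496 ± 0.171 CPM, and Bmp2, a bone morphogen, fell from 2.96 ± 1.26 to 1.20 ± 0.36 CPM (adult against fetal, edgeR adjusted p = 0.00106 and 0.00838).

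Of 12 genes of bone matrix and mineral nucleation, 6 were tested, 4 higher and 1 lower in adult than in fetal cells, 4 higher and 2 lower in adult than in neonatal cells, and 2 higher and none lower in neonatal than in fetal cells (medians 1.83, 1.31 and -0.18). Of all genes, 34.9% were higher in adult than in fetal cells and 31.6% in adult than in neonatal cells, and the list was not tested against them. Without fetal replicate 3, 2 were lower in each of the comparisons with fetal cells. Spp1, osteopontin, had 109, 109 and 299 CPM in fetal, 96.6, 98.4 and 98.1 in neonatal and 2968, 3052 and 3202 in adult replicates, a 17.8-fold rise over fetal cells (4.16, edgeR adjusted p = 1.74e-05), or 28.2-fold without fetal replicate 3. It is also a product of macrophages, whose markers rose in the same libraries. Fam20c, the kinase of secreted matrix proteins, rose at each step from 44.6 ± 3.4 through 152 ± 4 to 510 ± 70 CPM (adult against fetal 3.51, adjusted p = 1.42e-08). Smpd3, a sphingomyelinase of mineralizing cartilage and bone, rose 8.66-fold to 23.6 ± 4.8 CPM, and Phex, a peptidase of osteocytes, had 1.17 ± 0.36 CPM in fetal cells and 0 in all adult libraries. Phex passed the low-count filter only through the fetal libraries, so its adjusted p is not given. It is among the genes counted above as lower in the adult comparisons.

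In the pathway of phosphate and pyrophosphate itself 11 of 13 genes were tested. From fetal to neonatal cells 3 were higher and 5 lower, from fetal to adult 5 higher and 3 lower, and from neonatal to adult 6 higher and 2 lower (medians -0.38, 1.33 and 0.82). Nt5e, CD73, the enzyme that makes adenosine and phosphate from the AMP left by Enpp1, ran opposite to it. It had 17.2, 18.2 and 16.0 CPM in fetal, 77.4, 77.7 and 77.3 in neonatal and 226, 193 and 189 in adult replicates, an 11.8-fold rise (3.56, edgeR adjusted p = 3.46e-09). Enpp3, a relative of Enpp1 that also cleaves nucleotides, rose 24.1-fold from 11.6 ± 2.9 to 280 ± 108 CPM (4.59, adjusted p = 1.87e-06). Enpp5 had 7.14 ± 1.78, 2.92 ± 0.47 and 23.1 ± 3.3 CPM in the 3 ages. Xpr1, the phosphate exporter, fell 4.29-fold from 55.9 ± 5.6 to 13.0 ± 2.0 CPM (-2.10, adjusted p = 4.66e-07).

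Of 9 calcification inhibitors and vitamin K genes other than Mgp, 5 were tested, 2 higher in neonatal than in fetal cells, 3 higher in adult than in fetal cells and 1 higher in adult than in neonatal cells, and none was called lower with all libraries (medians 0.54, 1.08 and 0.55). Without fetal replicate 3, 4 were higher and 1 lower in adult than in neonatal cells. Tnfrsf11b, osteoprotegerin, whose loss calcifies arteries in mice, rose 4.85-fold from 101 ± 51 CPM in fetal to 489 ± 109 in adult cells (2.28, edgeR adjusted p = 0.000615). Smad6, an inhibitor of BMP signalling in valves, rose 2.96-fold to 52.1 ± 21.8 CPM, and Gas6, another vitamin K-dependent protein, rose 2.12-fold to 901 ± 104 CPM (adjusted p = 0.00125 and 0.0145). Ggcx, the carboxylase that activates Mgp and Gas6, was at 162 ± 38, 220 ± 7 and 171 ± 9 CPM. It differed by 0.07 between adult and fetal cells (edgeR adjusted p = 0.674). Without fetal replicate 3 that difference changed sign to -0.11 and did not pass either (adjusted p = 0.102). Its adult against neonatal difference of -0.37 did not pass (edgeR adjusted p = 0.0545), but did without fetal replicate 3 (adjusted p = 7.02e-05).

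Genes of valve cushion and tendon mesenchyme, the tissue in which the fetal heart makes cartilage-like matrix, made up the last list. Of 9, 7 were tested, 1 higher and 5 lower in adult cells against each of the younger ages (medians -1.69 and -1.07). In neonatal against fetal cells 1 was higher and 2 lower, or 2 higher and 2 lower without fetal replicate 3. Of all genes, 35.5% were lower in adult than in fetal cells and 31.8% in adult than in neonatal cells. Tnc, tenascin-C, fell 15.2-fold from 2644 ± 624 CPM in fetal to 174 ± 15 in adult cells (-3.92, edgeR adjusted p = 1.17e-07). Tgfb2, a growth factor of cushion formation, fell 3.23-fold to 137 ± 39 CPM, and Thbs4, a tendon matrix protein, fell 7.88-fold from 4.17 ± 3.80 to 0.521 ± 0.128 CPM. Without fetal replicate 3 its fetal mean was 1.98 CPM and the fall 3.76-fold (edgeR adjusted p = 0.000277). Tbx20, a T-box factor of cushions, had its highest level in neonatal cells, with 27.3 ± 3.4, 50.7 ± 5.5 and 12.6 ± 3.4 CPM in the 3 ages, and each step passed (0.89, adjusted p = 0.00373, and -2.01, adjusted p = 1.26e-05).

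**Figure D5:**
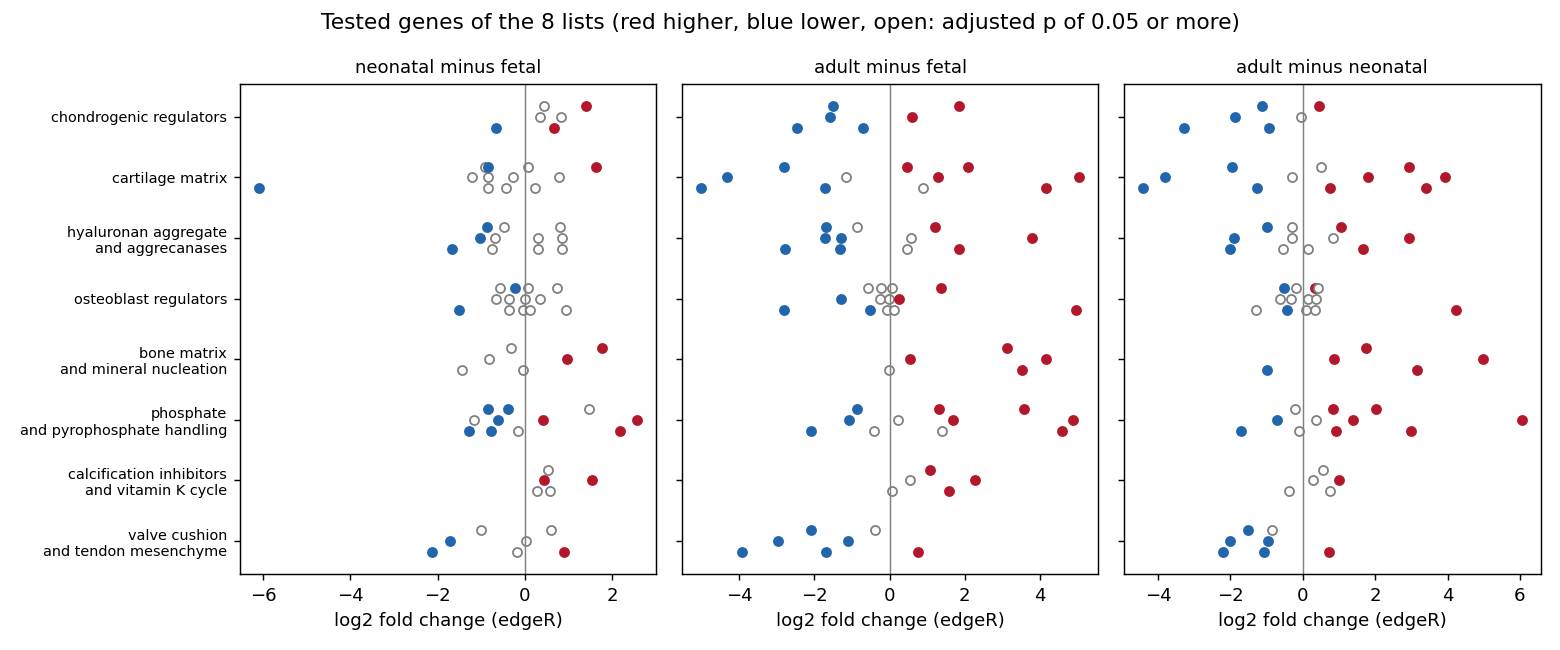
Log2 fold changes of the tested genes in the 8 lists, 1 panel per comparison of ages, with genes at adjusted p under 0.05 filled. In adult against fetal cells 4 of 6 genes of bone matrix are called above 0 and 5 of 7 of valve cushion and tendon mesenchyme below 0, and Col2a1 and Phex are not drawn there because their adult libraries were at 0.

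The genes most like each of the 7 across libraries were taken by Pearson's r of log2 CPM over the 9 libraries, as a description. The points share 3 ages, and many genes change with age, so high values are common: 1025 genes had r over 0.95 with Acan, 778 with Alpl, 710 with Mgp, 586 with Enpp1 and 275 with Hapln1, but only 33 with Sox9 and 2 with Runx2. Nearest to Sox9 were Itga11 (0.989), a collagen-binding integrin, Fam107b (0.985) and Dbndd2 (0.985). Nearest to Acan were Cdh11 (0.999), Sptb (0.998) and the cardiac myosin Myh6 (0.998), and to Hapln1 Khdrbs1 (0.995), Sms (0.992) and Nup107 (0.991). For Mgp they were Ech1 (0.997), Bst1 (0.997) and Meis3 (0.996), and for Runx2 Wdr89 (0.967), Acsl4 (0.961) and Tmem59l (0.925). For Alpl they were Irf4 (0.997), the lectin Clec4d (0.996) and LOC691931 (0.994), and for Enpp1 Grip1 (0.995), the chloride channel Ano1 (0.994) and Syt11 (0.994). Over these 9 libraries, Sox9 and Runx2 thus had patterns that few tested genes matched at that level. The other 5 had patterns shared by at least 275 genes. Fetal replicate 3, which was apart for Sox9, Hapln1, Mgp and Runx2, is among the 9, and the correlations were not repeated without it. Runx2 also did not pass the test of any difference among ages (edgeR adjusted p = 0.659).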

How the data were processed

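RNA from 9 libraries of cultured rat cardiac fibroblasts was analysed from gene counts. The authors deposited raw counts per gene, made with featureCounts 1.6.3 and an rn6 annotation per the file headers, which name only annotation and output options, so that counting followed that program's unstranded default. The submitters' processing notes also name FastQC, Trimmomatic 0.39, STAR 2.5.2b, Subread 1.6.3 and DESeq2. The authors' second table, of DESeq2-normalized values, was not used here. No count column belonged to a sample outside the 9.

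Ages were compared with edgeR 4.0.16 and limma 3.58.1 in R 4.3.3: filterByExpr kept 11337 of 17337 genes, TMM gave the scaling factors, and a robust quasi-likelihood model on age alone was fitted to all 9 libraries at once. P-values were adjusted by Benjamini-Hochberg over all tested genes within a comparison, with a threshold of 0.05. CPM and RPKM use TMM-scaled library sizes and the exon lengths in the file headers' Length column, and log2 CPM a prior count of 2. Folds against ages at 0 use a floor of 3 counts per library, and intervals are exact at 95%. Both cover counting error only, since sequenced reads that carry no molecular identifier may be copies of one molecule. The scripts were tested on simulated data. No pair of libraries of one age agreed within counting noise by chi-square.

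The 7 genes, the 8 gene lists and the marker lists were chosen with earlier results of these data known. The text names the 7 genes and, from each list, the 4 others with the smallest p in the test of any difference among ages that reach a mean level of 1 CPM in their highest age, plus markers and genes apart in 1 library, and the 3 genes most alike in pattern to each of the 7. Start-site sequences are those of RefSeq on GRCr8, and all other coordinates are rn6. Alternatives were DESeq2 1.42.0, other filters and scalings, a fold threshold, a replicate block, fits to the compared ages alone and leaving out each library. The lists and named genes without fetal replicate 3 were added after seeing the data.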

Additional observations from a re-analysis of the deposited data

How the results depend on the processing

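Of the 7 genes' log2 fold changes under the alternatives, 331 kept their direction and side of the threshold, 10 newly passed it, 9 no longer passed it and 3 changed sign. DESeq2 called Mgp higher in neonatal than fetal cells (0.83, adjusted p = 0.0237) and Hapln1 lower in adult than neonatal cells (fitted -3.88, adjusted p = 0.0173). All fitted values of Hapln1 in that comparison are set over adult libraries at 0 and cannot be read as folds. Scaling by library size alone called Acan lower in neonatal than fetal cells (-0.30, adjusted p = 0.00939) and gave Runx2 a change of -0.14. Requiring a log2 fold change above 1 (glmTreat) left 360, 2648 and 1837 genes of 4114, 7987 and 7197 in the 3 comparisons, and 0 of the 7 genes in neonatal against fetal cells. The cause of these differences between tools and scalings was not tested.

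Same-numbered libraries of different ages did not deviate together (correlations -0.06 to 0.05, 0 of 9 libraries closest to their own number). These values give no sign that the numbers pair the libraries, but with 3 libraries per age they cannot exclude it. With a replicate block, Mgp in neonatal against fetal cells passed (0.94, adjusted p = 0.0284), Hapln1 in adult against neonatal cells passed (fitted -5.05, adjusted p = 0.0367), and Sox9 in adult against neonatal cells did not (-0.96, adjusted p = 0.0517).

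Leaving out each library in turn gave 2476 to 4679 genes and 2 to 5 of the 7 genes called in neonatal against fetal cells. There, Runx2 ran from -0.13 to 0.52, Acan from -0.25 to -0.069 and Hapln1 from -3.81 to -2.13. The number of genes called was 2607, 2476 and 2575 without neonatal replicate 1, 2 or 3. In adult against fetal cells Runx2 ran from 0.054 to 0.70 and Sox9 from 0.33 to 0.86. In adult against neonatal cells Sox9 ran from -1.18 to -0.71 and the fitted value of Hapln1, which is no fold, from -5.04 to -4.70. Hapln1 was not tested where at least 1 CPM was required in 3 libraries. Any-age calls numbered 8796 genes, and 9453 without fetal replicate 3. The counts of Hapln1, of Acan in adult cells and of Alpl before adulthood limit what can be read from their levels.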

Other observations

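The Enpp family, to which Enpp1 belongs, changed unevenly with age. Enpp2, autotaxin, which makes a signalling lipid and not pyrophosphate, was at 0.954 ± 0.642 CPM in fetal, 0.427 ± 0.138 in neonatal and 28.2 ± 13.3 in adult cells (n = 3 per age). Adult replicates 1 to 3 had 41.4, 28.3 and 14.9 CPM, and edgeR's fitted rise over fetal cells was 29.4-fold. Enpp2 passed the low-count filter only through the adult libraries, so its adjusted p is not given. Enpp4 rose 2.5-fold from 10.4 ± 1.8 to 26.1 ± 1.8 CPM (edgeR adjusted p = 1.36e-05). Enpp2, Enpp3, Enpp4 and Enpp5 were all higher and Enpp1 lower in adult than in fetal cells. These relatives and the 2 genes that follow were picked after their values were seen.

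The pyrophosphate exporter Ankh was lowest in neonatal cells, with 63.6 ± 16.0, 41.6 ± 1.5 and 73.6 ± 8.1 CPM in the 3 ages. Neonatal cells differed from fetal (-0.61, edgeR adjusted p = 0.0158) and from adult cells (adult against neonatal 0.82, adjusted p = 0.00151). Adult and fetal cells did not differ past the threshold with all libraries (adjusted p = 0.253). Fetal replicates 1 and 2, with 53.72 and 55.09 CPM, lay below all adult libraries (64.41, 76.61 and 79.65), and fetal replicate 3, with 82.05, above them. The phosphate importer Slc20a1 had 241 ± 108, 141 ± 4 and 180 ± 8 CPM, also without a call between adult and fetal cells (edgeR adjusted p = 0.165). Its high fetal mean rests on fetal replicate 3, with 365.4 CPM against 173.8 and 182.4 in fetal replicates 1 and 2. Without that library the fetal mean was 178.1 CPM.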
